A study of Mus musculus with 14 samples.

Results

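Tenascins, thrombospondins and periostin are secreted matricellular proteins, and the 9 genes examined here are Tnc, Tnn, Tnxb, Thbs1, Thbs2, Thbs3, Thbs4, Comp and Postn. They were taken by gene symbol from a table of 23331 genes, each symbol occurred once, and all 9 passed the expression filter that 13896 genes passed. The 14 libraries came from bone marrow stromal cells of adult C57Bl/6 mice carrying the irtTA-GBD*-TAg transgene, a large T antigen that is induced with dexamethasone and doxycycline and keeps the cells dividing. All groups share this transgene, and the inducers were withdrawn 3 days before lysis. Clones were grouped by the lineages they formed in culture: adipogenic only (A), osteogenic only (O), both (OA), and tripotent, which adds the chondrogenic lineage (OAC), with 3 libraries each. In each group the libraries numbered 1 and 2 each come from a single clone, of a different mouse, and the library numbered 3 pools further clones of both mice. The spread that enters a p-value is therefore that among clones and a pool. An osteo-chondrogenic pool (OC3) and an adipo-chondrogenic pool (AC3) have no replicate and are described by their values.

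Matricellular proteins are deposited in the extracellular matrix, where they bind collagen, fibronectin, integrins and growth factors and tune adhesion and signalling more than they bear load. Tenascins are large multi-arm glycoproteins, thrombospondins assemble into trimers (Thbs1 and Thbs2) or pentamers (Thbs3, Thbs4 and Comp, also called thrombospondin 5), and periostin is a fasciclin-domain protein named after the periosteum. In the skeleton tenascin-C, tenascin-W (encoded by Tnn) and periostin are known from the bone surface and the periosteum, Comp and Thbs4 from cartilage and tendon, and Thbs1 and Thbs2 from stromal and wound tissue.

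The promoters of Tnn, Postn and Thbs4 are shown because these members had the largest O vs A log2 differences. RefSeq promoter windows on build GRCm38.p6 were matched by symbol for 7 of the 9 members, not for Thbs1 and Comp. The windows hold the 250 bases before each listed start, 5′ to 3′, and Postn has 2 listed starts. Capitals mark matches, on either strand, to any of 3 short motifs. The box known for placing the start of transcription was searched as TATAAA. The core bound by RUNX factors, which include the osteoblast regulator Runx2, was searched as TGTGGT. The core bound by TEAD factors, the partners of YAP, was searched as GGAATG.
Tnn, chr1:160153576-160153825, minus strand: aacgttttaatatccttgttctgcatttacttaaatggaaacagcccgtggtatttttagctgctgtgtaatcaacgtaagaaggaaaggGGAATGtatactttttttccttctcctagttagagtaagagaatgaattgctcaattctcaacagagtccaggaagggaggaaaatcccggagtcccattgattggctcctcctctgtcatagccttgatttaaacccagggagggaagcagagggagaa
Postn, first start, chr3:54359017-54359266, plus strand: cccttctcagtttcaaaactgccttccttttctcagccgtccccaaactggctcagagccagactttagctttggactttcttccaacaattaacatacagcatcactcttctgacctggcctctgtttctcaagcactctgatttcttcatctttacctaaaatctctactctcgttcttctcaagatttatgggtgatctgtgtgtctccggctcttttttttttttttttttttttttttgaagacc
Postn, second start, chr3:54360857-54361106, plus strand: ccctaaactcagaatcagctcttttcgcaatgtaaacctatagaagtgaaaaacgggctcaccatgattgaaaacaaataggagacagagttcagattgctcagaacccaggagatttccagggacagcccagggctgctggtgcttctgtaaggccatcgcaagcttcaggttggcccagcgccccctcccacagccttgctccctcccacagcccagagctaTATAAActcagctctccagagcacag
Thbs4, chr13:92794819-92795068, minus strand: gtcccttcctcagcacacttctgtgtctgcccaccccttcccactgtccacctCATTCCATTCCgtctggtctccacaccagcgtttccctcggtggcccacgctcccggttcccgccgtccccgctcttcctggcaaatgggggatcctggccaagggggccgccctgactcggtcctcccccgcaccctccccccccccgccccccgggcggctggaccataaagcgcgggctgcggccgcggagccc
A TATA box lay 26 bases before the second Postn start, and 12.4% of 32851 RefSeq windows of this length hold one. GGAATG had 1 match in the Tnn window, 160 bases before the start, and 2 overlapping matches in the Thbs4 window, and 12.6% of all windows hold at least 1. TGTGGT, which 14% of all windows hold, had no match in these 4. The Thbs4 window was 70.8% GC and the Tnn window 42% GC, against a median of 52.4%. These matches describe letters in the windows and say nothing of binding.

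Total counts were 16888190 to 26076539 per library. Levels are CPM (counts scaled by TMM-adjusted library size) and, wherever genes are compared with each other, RPKM (the same CPM per kilobase of deposited exonic length). The libraries differed in how the deviation of their genes from the mean library followed GC content. The Spearman rho across genes was 0.65 in OA2 and 0.51 in O1, the highest, and -0.54 in OAC3, OC3 and AC3, the lowest, with O2 and O3 at -0.47 and -0.44. Summed markers of megakaryocytes and platelets, a known source of Thbs1, were 9.35 to 11.1 CPM in A, 13.2 to 35.4 CPM in O, 4.34 to 8.07 CPM in OA and 5.69 to 7.55 CPM in OAC. Blood cell markers were 10.2 to 17.4 CPM in A and 7.31 to 48.7 CPM in O, and O1 was highest for both lists. Endothelial markers summed to 0.59 to 6.56 CPM and Schwann and neural markers to 2.06 to 30.3 CPM, while smooth muscle genes, which stromal cells also express, summed to 3410 to 19700 CPM. The osteoblast list (Runx2, Sp7, Alpl, Ibsp, Bglap, Col1a1) summed to 5120 to 11300 CPM in A and to 34700 to 55800 CPM in O, and the adipocyte list (Pparg, Cebpa, Fabp4, Lpl, Adipoq) to 236 to 411 CPM in A and 61.7 to 113 CPM in O. Col1a1 made up most of the osteoblast sums (55600 of 55800 CPM in O1 and 4960 of 5120 CPM in A2), so they say little of the other markers. The adipocyte genes did not move together. Pparg, Cebpa and Lpl were lower in every O library than in every A library. Fabp4 stood at 59.6, 85.4 and 27.5 CPM in O against 38.2, 19.8 and 45.9 CPM in A, and Adipoq overlapped between these groups. In bulk libraries fewer cells of a type and less RNA per cell cannot be told apart.

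On the RPKM scale Thbs1 was the highest of the 9 members in 12 of 14 libraries, with a median of 852 RPKM, followed by Tnc at 247, Thbs2 at 116 and Postn at 85.8 RPKM. Tnn (8.5 RPKM), Thbs3 (6.85) and Comp (3.18) were lower by median level, and Tnxb (0.15) and Thbs4 (0.0173) were lowest, Thbs4 with 0 or 1 read in A, AC3, O1, OA1, OAC1 and OAC2. The exceptions were O1, where Thbs2 ranked first, and O2, where Postn did. Together the 9 genes took 0.14% of all reads in O1, the lowest share, and 1.69% in OC3, the highest, with O2 next at 1.6%. Thbs1 made up 67.1% to 75.7% of the members' reads in A and 13.2% to 37.7% in O. Between libraries Thbs2 varied least, by 5.27 times from lowest to highest, and Tnn most among the members read in every library, by 1150.3 times. The SD of log2 CPM was 3.5 for Tnn, 2.47 for Thbs4 and 2.19 for Postn, above 99.9%, 99% and 98% of the genes tested.

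**Figure D1:**
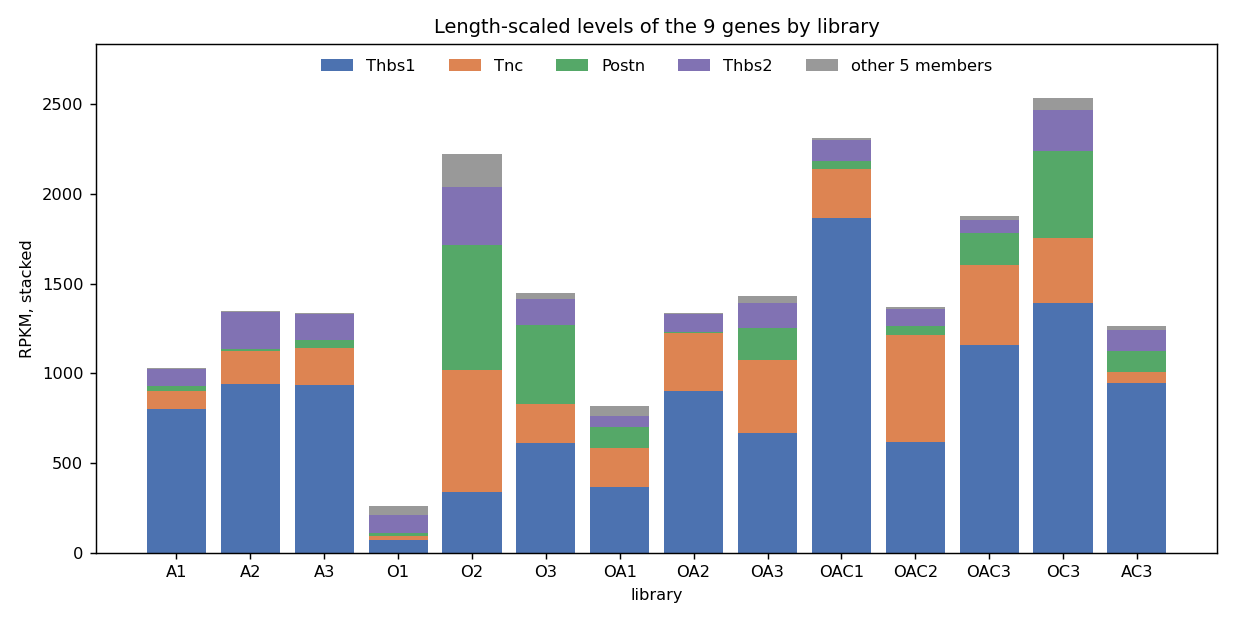
Length-scaled levels (RPKM, stacked bars) of Thbs1, Tnc, Postn, Thbs2 and the sum of the other 5 members in each of the 14 libraries. Thbs1 is the tallest block in 12 libraries, O1 has the shortest bar, and the Postn block is larger in O2, OC3 and O3 than in the other libraries.

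Tnn, which encodes tenascin-W, had the widest gap between osteogenic and adipogenic clones among the members read in every library. Its level was 0.822, 3.65 and 1.3 CPM in A1, A2 and A3, and 116, 946 and 87.8 CPM in O1, O2 and O3. The OA libraries held 229, 3.11 and 146 CPM and the OAC libraries 19.6, 1.07 and 79.4 CPM. All 3 O libraries therefore lay above A, whereas OA2 and OAC2 lay within the range of A, and 7 of the 9 osteogenic libraries exceeded the highest A library. AC3, which lacks osteogenic potential, held 1.51 CPM, and OC3 held 298 CPM. In edgeR the log2 fold change was 7.64 ± 2 (SE) for O vs A (FDR 0.248), 6.03 ± 1.86 for OA vs A (FDR 0.686) and 4.12 ± 1.71 for OAC vs A (FDR 1), so none passed the threshold over all genes. DESeq2 called Tnn in O vs A (adjusted p 3.57e-06) and OA vs A (0.00195), but not in OAC vs A (0.2). In OA vs A its adjusted p was 0.0627 without OA1. Without O2 the DESeq2 log2 fold change of O vs A was 5.8 (adjusted p 0.00356). In these low-Tnn libraries the osteoblast markers listed above exceeded all A libraries, except Runx2 in OA2. In OAC2 Sp7, which encodes osterix, was at 114 CPM, Runx2 at 169 CPM and Ibsp at 125 CPM. In OA2 Sp7 was at 13.5 CPM, against 0.486 to 1.03 CPM in A, and Alpl was at 223 CPM, against at most 146 CPM. Ibsp was at 1.02 CPM in OA2, close to the highest A library (0.648 CPM). Runx2 was at 56 CPM in OA2, below the A libraries (58.5 to 86.5 CPM).

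Tnc, which encodes tenascin-C, was abundant in nearly every library and separated the clones less. Its levels were 765, 1361 and 1577 CPM in A, 157, 5115 and 1667 CPM in O, 1620.5, 2432 and 3066 CPM in OA, and 2049, 4472 and 3379 CPM in OAC. All OA and OAC libraries lay above all A libraries, by a narrow margin for OA1 against A3, and O1 lay below every other library. The means were 1234 ± 420.5 CPM in A and 3299.9 ± 1213 CPM in OAC (SD, n = 3 each), with an edgeR log2 fold change of 1.42 ± 0.87 (FDR 1). For O vs A it was 0.91 ± 0.86 (FDR 0.89), and without O2 it was -0.44. DESeq2 did not call Tnc in any comparison.

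Tnxb, which encodes tenascin-X, a protein that spaces collagen fibrils in skin and loose connective tissue, was low, with its highest level in the library numbered 1 of each group. Its levels were 10.2, 2.39 and 2.06 CPM in A1 to A3, 5.41, 0.365 and 1.65 CPM in O1 to O3, 3.71, 0.643 and 0.987 CPM in OA1 to OA3, and 3.62, 0.88 and 0.79 CPM in OAC1 to OAC3. The clone numbered 1 was the highest of its 3 in all 4 groups, as for 3.59% of the genes tested. Tnc showed the opposite, with number 1 lowest in all 4 groups, as for 1.58% of the genes tested. The labels do not say whether a number marks the same mouse in every group. The mean of Tnxb was 4.87 ± 4.58 CPM in A, and no osteogenic library exceeded A1. The edgeR log2 fold change of O, OA and OAC vs A was -1.3 ± 0.82 (FDR 0.891). Without A1 it was -0.17, and the O vs A value went from -0.99 to 0.15.

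Across the 14 libraries log2 levels of Tnc and Tnxb had a Pearson r of -0.8 and a Spearman rho of -0.86. Without OA2 and O1 the r was -0.9 over 12 libraries. The 3 libraries with the least Tnc (O1, AC3 and A1) were the 3 with the most Tnxb (5.41, 9.84 and 10.2 CPM). Both genes were scaled with the same library sizes, and the pools share mice with the single clones. The r of Tnc with Tnxb was the most negative among all pairs of the 9 members, so it is an extreme of many. Tnxb with Thbs4 had -0.77. Reads of Tnxb ran from 9 in O2 to 248 in AC3.

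**Figure D2:**
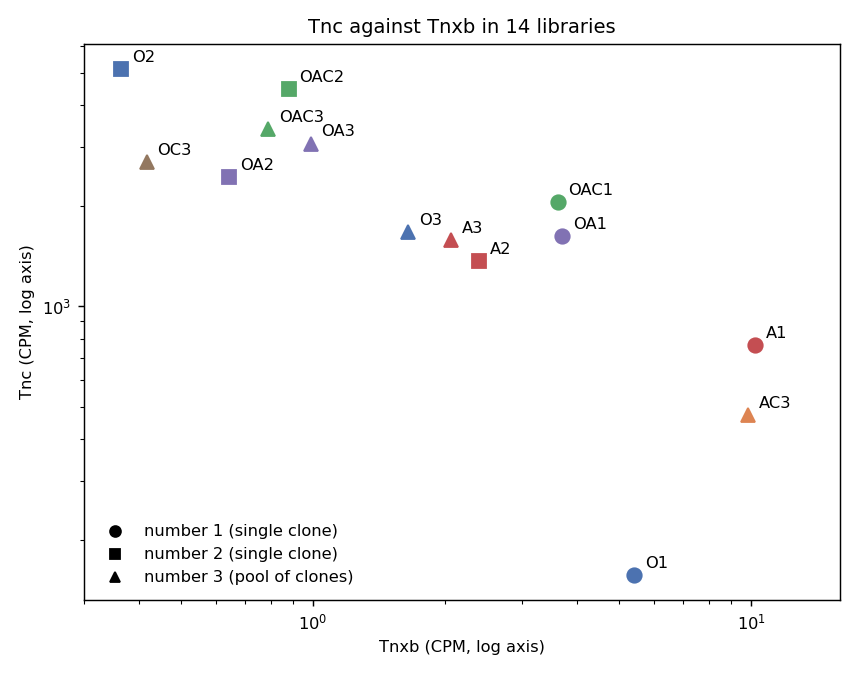
Tnc against Tnxb in 14 libraries, both in CPM on log axes, with colour for the group and marker shape for the library number. Circles (number 1) lie to the right at 3.62 to 10.2 CPM of Tnxb, and O2 lies at the upper left with 5115 CPM of Tnc and 0.365 CPM of Tnxb.

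Thbs1, a trimeric thrombospondin that activates latent TGF-beta and restrains vessel growth, had a lower mean in O than in every other group. Its levels were 4860.1, 5725 and 5672 CPM in A, 437, 2056 and 3703 CPM in O, 2238, 5484 and 4046 CPM in OA, and 11338, 3742 and 7021 CPM in OAC. The O libraries all lay below the A libraries and, narrowly for O3 against OAC2, below the OAC libraries. In edgeR the log2 fold change was -1.39 ± 0.66 for O vs A (FDR 0.532) and 1.83 ± 0.67 for OAC vs O (FDR 0.763), and DESeq2 called neither (adjusted p 0.313 and 0.182). Without O1, the lowest O library, the edgeR value of O vs A was -0.91. Without O3, the highest, it was -2.12, and DESeq2 then called Thbs1 (-2.07, adjusted p 0.0441). The summed platelet markers given above were low but higher in all O libraries than in all A libraries, and their part in the Thbs1 values was not tested. Of the 5 genes on that list 1, Itga2b, passed the expression filter, so the sums say little of the list as a set. Without OAC1 the OAC vs A value changed from 0.44 to -0.01. OC3 held 8467 CPM, above every O library.

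Thbs2, the other trimeric member, known for limiting the number of marrow stromal progenitors, differed little. The group means were 879.9 ± 335 CPM in A, 1123 ± 699 CPM in O, 591 ± 226 CPM in OA and 556 ± 122 CPM in OAC. The highest level was 1913 CPM in O2 and the lowest 363 CPM in OA1, and no pair of groups was separated. The edgeR log2 fold change was 0.35 ± 0.47 for O vs A (FDR 0.972) and -0.27 without O2.

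Among the pentameric members Comp, a cartilage and tendon protein that binds collagen, was the one member above A in every osteogenic library. Its levels were 1.89, 1.58 and 1.11 CPM in A, from 46, 39 and 29 reads. They were 10.6, 9.54 and 8.96 CPM in O, 3.36, 5.58 and 11.3 CPM in OA, and 2.78, 13.2 and 11.7 CPM in OAC. The 9 osteogenic libraries thus started at 2.78 CPM against a highest A library of 1.89 CPM, and 1.23% of the genes tested were separated from A in this direction. The log2 fold change of O, OA and OAC vs A was 2.46 ± 0.56 in edgeR (FDR 0.256) and 2.52 ± 0.5 in DESeq2 (adjusted p 0.000162, and up to 0.0136 with 1 library left out). It was 2.66 ± 0.62 for O vs A, 2.14 ± 0.61 for OA vs A and 2.59 ± 0.62 for OAC vs A in edgeR, with FDR of 0.196, 0.649 and 1. DESeq2 called all 3 (adjusted p 0.000977, 0.0396 and 0.00704). The O vs A call held in DESeq2 whichever library was left out (adjusted p up to 0.0173), while OA vs A had 0.0892, 0.256, 0.102, 0.185 and 0.219 without OA2, OA3, A1, A2 and A3. The OAC vs A call had 0.209, 0.101, 0.0569 and 0.0885 without OAC2, OAC3, A2 and A3. AC3 held 12 CPM of Comp, above every A library, and OC3 6.44 CPM. Col2a1, Acan and Sox9, the cartilage markers, summed to 46.5 to 205 CPM in A and 44.5 to 313 CPM in O. The Schwann and neural list, which holds S100b, summed to 2.06 to 3.85 CPM in A, 9.11 to 19.6 CPM in O, 4.71 to 10.5 CPM in OA, 2.56 to 30.3 CPM in OAC and 13.7 CPM in AC3, and its part in the Comp values was not tested.

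Thbs3, a pentameric thrombospondin of developing skeleton, had its highest group mean in O. Its levels were 23.2, 24.2 and 7.02 CPM in A, 139, 65.8 and 53.2 CPM in O, 69.9, 21.2 and 38.8 CPM in OA, and 27.3, 11.6 and 24.1 CPM in OAC. The O libraries lay above all A and all OAC libraries, but OA1 exceeded O2 and O3. AC3, which lacks osteogenic potential, held 59.6 CPM, above O3, and OC3 held 57.3 CPM. The edgeR log2 fold change was 2.24 ± 0.61 for O vs A (FDR 0.259) and -2.03 ± 0.61 for OAC vs O (FDR 0.73), and DESeq2 called the first (adjusted p 0.01) and not the second (0.0848). In DESeq2 the O vs A value was 1.72 (adjusted p 0.171) without O1 and 1.92 (0.0548) without A3. In the later GENCODE M21 annotation 318 exonic bases of Thbs3 overlap Mtx1 on the opposite strand. The strand setting of the counting is not given in the sources used here, so reads of this stretch cannot be assigned with certainty.

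Thbs4, a pentameric thrombospondin of tendon and muscle, was read mainly in O2. Reads were 0 in A1, A2 and A3, and 1, 382 and 11 in O1, O2 and O3. The OA libraries held 1, 10 and 64 reads, the OAC libraries 1, 0 and 23, OC3 held 93 and AC3 held 0. A count of 0 over the A group allows up to 0.0399 CPM (3 counts), so the level over the pooled reads was at least 147-fold higher in O and at least 30.9-fold higher in OA, counting error only. O2 held 382 of the 394 O reads and OA3 held 64 of the 75 OA reads, and the bound was 7.1-fold without O2 and 7.14-fold without OA3. O1 and OA1, with 1 read each, cannot be told from A. Thbs4 reached 1 CPM in 3 libraries, O2, OA3 and OC3, and so passed the expression filter only through libraries where it was high. Its tests are given for completeness and support nothing: DESeq2 called O vs A (adjusted p 0.0052) and the edgeR FDR was 0.377. Without O2 it did not pass the filter and was not tested. DESeq2 also called the 3 osteogenic groups against A (adjusted p 0.022), with 0.0959, 0.126, 0.138 and 0.102 without OAC3, A1, A2 and A3, and gave no adjusted p without O2, OA1, OA2 or OA3. Tendon markers (Scx, Tnmd, Mkx) summed to 34.9 to 54 CPM in O and 13.2 to 25 CPM in A. Of these only Scx separated the groups (19.9 to 41.8 CPM in O, 3.16 to 13.4 CPM in A). Mkx overlapped (8.72 to 14.5 CPM in O, 4.56 to 17.5 CPM in A), and Tnmd was at most 1.05 CPM in both groups. The part of the tendon markers in the Thbs4 values was not tested.

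**Figure D3:**
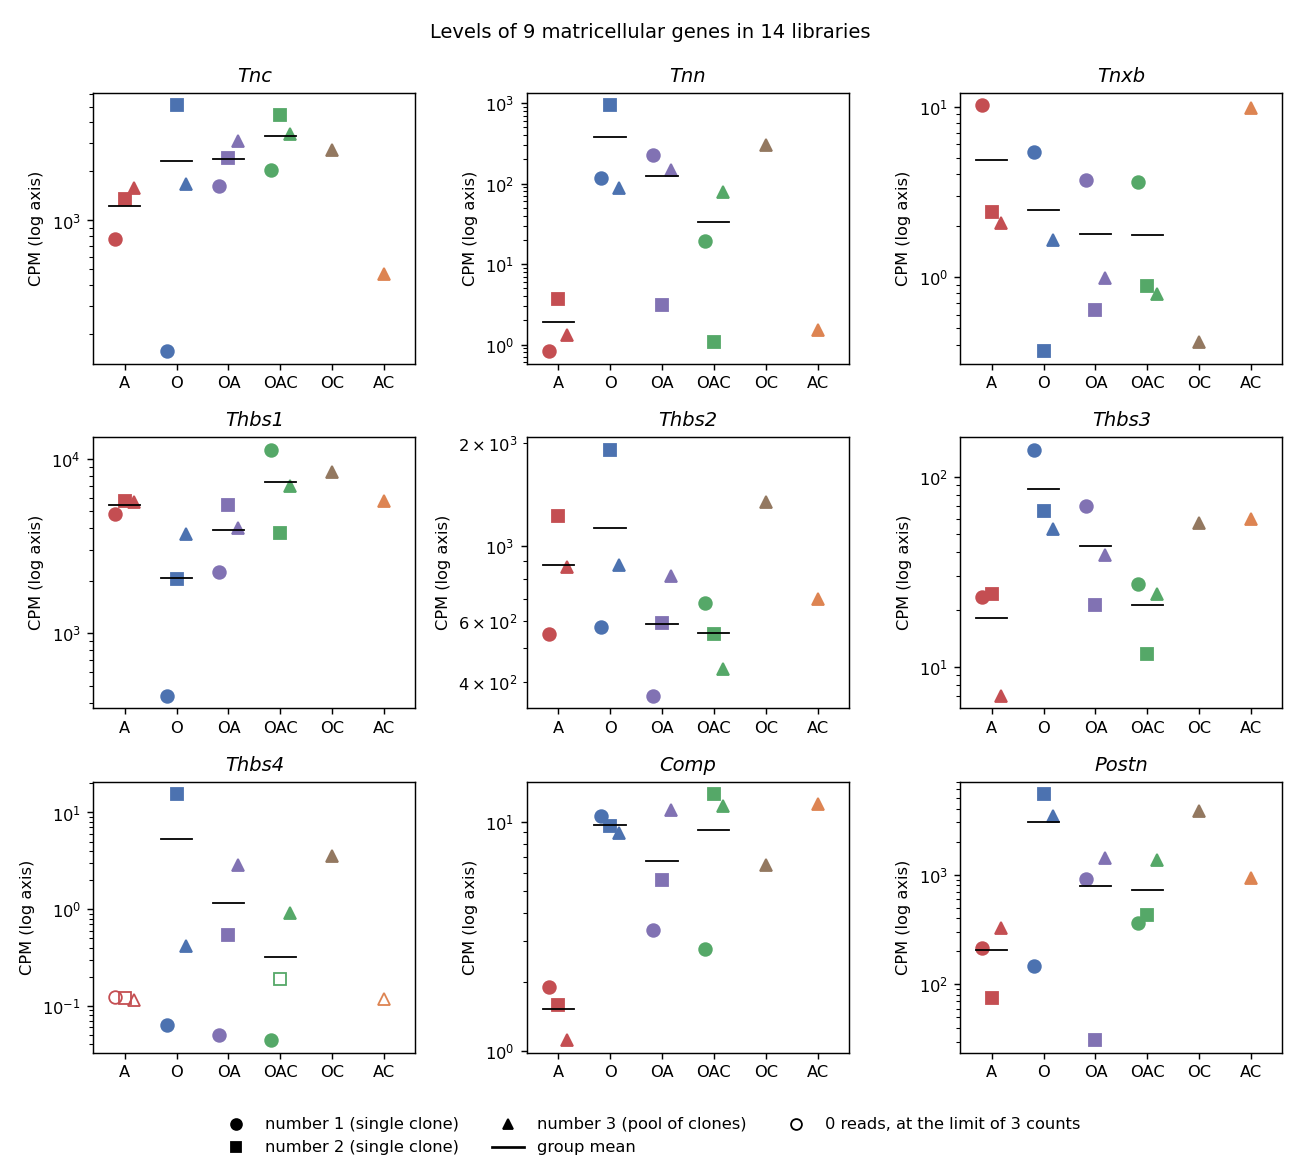
CPM (log axes) of the 9 members in the 14 libraries, by group, with marker shape for the library number and a bar for the mean of each group of 3. Comp in A (1.11 to 1.89 CPM) lies below all other libraries, Tnn is high in O (87.8 to 946 CPM), and open markers show libraries with 0 Thbs4 reads at the limit of 3 counts.

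Postn, which encodes periostin, a collagen-binding protein of periosteum and ligament, ranged from 30.8 CPM in OA2 to 5436 CPM in O2. Its levels were 213, 75 and 328 CPM in A, 148, 5436 and 3428 CPM in O, 919, 30.8 and 1409 CPM in OA, and 360.2, 427 and 1370.2 CPM in OAC. The OAC libraries lay above all A libraries, whereas O1 and OA2 lay within or below A. OC3 held 3798 CPM and AC3 928 CPM. The edgeR log2 fold change was 3.87 ± 1.42 for O vs A (FDR 0.411), 1.94 ± 1.31 for OA vs A and 1.81 ± 1.3 for OAC vs A (FDR 1 each). DESeq2 called O vs A (adjusted p 0.0238), but had 0.207, 0.0706, 0.101 and 0.173 without O2, O3, A1 and A2.

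The 2 low osteogenic libraries for Postn are the 2 whose reads leaned most to GC-rich genes, and the Postn transcript is only 36.3% GC, lower than all but 0.619% of the genes tested. The other members have transcripts of 48.4% to 60.7% GC, against a median of 49.9%. Comp (59.9%) and Tnxb (60.7%) are GC-rich, above 95.5% and 96.8% of the genes tested. In O1 their fitted GC trends were 0.43 and 0.45 on the log2 scale, against -2.17 for Postn. When the smooth trend of each library's deviation on GC content was removed, Postn stood at 668, 2451 and 1755 CPM in O, 866, 217 and 778 CPM in OA, 729, 1129 and 633 CPM in OAC, and 215, 69 and 232 CPM in A. On that scale 8 of the 9 osteogenic libraries lay above A, the exception being OA2, against 7 of 9 without the correction. The edgeR log2 fold change with this GC offset was 3.24 ± 0.67 for O vs A (FDR 0.116), 1.85 ± 0.63 for OA vs A (FDR 0.687) and 2.27 ± 0.64 for OAC vs A (FDR 0.964). It was 2.45 ± 0.59 for the 3 osteogenic groups against A (FDR 0.226). The correction thus lowered the O vs A value from 3.87 and narrowed its SE. Leaving out OA2 and O1 gave 4.42 ± 0.74 for O vs A in edgeR (FDR 0.136) and an adjusted p of 1.34e-08 in DESeq2, but these are also the lowest osteogenic libraries for Postn, so this setting raises the difference by construction. With limma voom and quality weights per library, Postn was called in O vs A (4.11 ± 0.8, adjusted p 0.0399). Among the other members the correction moved 1 count against A: Thbs3 lay above A in 7 osteogenic libraries in place of 6. Postn lies near the edge of the GC range over which the trend was estimated. The rho with GC content was 0.04, -0.13 and -0.2 in A1, A2 and A3, so the trends were weaker in A than in most osteogenic libraries. The part of GC content in the low Postn values of O1 and OA2 was not tested. A GC trend and expression differences between clones cannot be told apart here.

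**Figure D4:**
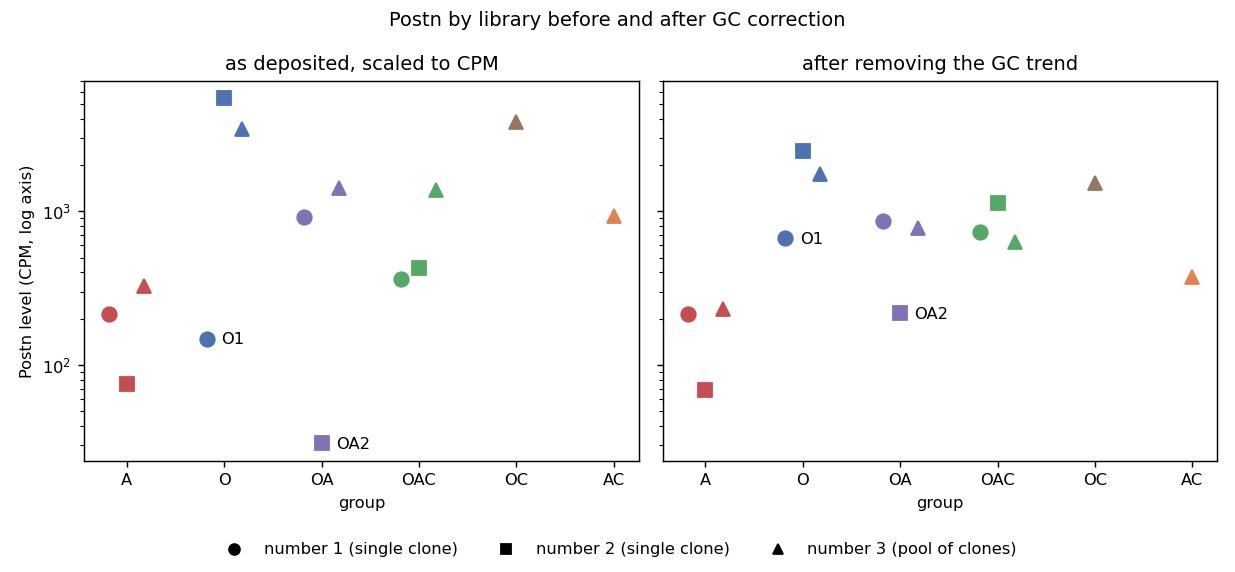
Postn by group in CPM (log axis) before (left) and after (right) removal of each library's GC trend, with marker shape for the library number. O1 goes from 148 to 668 CPM and OA2 from 30.8 to 217 CPM, while the A libraries stay at or below 328 CPM.

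Thbs4 is left out of the counts that follow, which cover the other 8 members. In O vs A 6 of 8 had a positive log2 fold change, with a median of 1.58 against 0.03 over all genes tested. By edgeR 0 of 8 passed the FDR in O vs A, where 0.0072% of all genes did. At an unadjusted p under 0.05 stood 4 members (Tnn, Thbs3, Comp and Postn), all higher in O, against 9.89% of all genes. DESeq2 called these 4, against 3.03% of all genes, and limma voom called Postn alone, against 1.09%. On a single simulated draw of this design DESeq2 made false calls more often than its threshold allows and edgeR did not. The draw used dispersions estimated by edgeR, which can favour edgeR, so it does not rank the tools by itself. Calls made by DESeq2 alone are still read here as the weaker evidence. Groups did not overlap for 3 members higher in O (Tnn, Thbs3 and Comp) and for Thbs1, lower in O, where 7.36% and 8.28% of genes were separated in these directions. In OA vs A edgeR called 0 of 8 (0.0072% of all genes), 2 reached an unadjusted p below 0.05 (5.27%), and DESeq2 called Tnn and Comp (0.937%). Tnc and Comp were separated and higher in OA, as were 5.16% of genes. In OAC vs A edgeR called 0 (0.0072%), 2 reached an unadjusted p below 0.05 (3.58%), and DESeq2 called Comp (0.411%). Tnc, Comp and Postn were separated and higher in OAC, as were 4.79% of genes. For the 3 osteogenic groups against A edgeR called 0 (0.0072%), with 3 members at an unadjusted p under 0.05 (7.44% of all genes), and DESeq2 called Tnn and Comp (2.04%). These comparisons share the A libraries. The members were not drawn at random from the table, so these shares describe them and test nothing about the family.

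**Figure D5:**
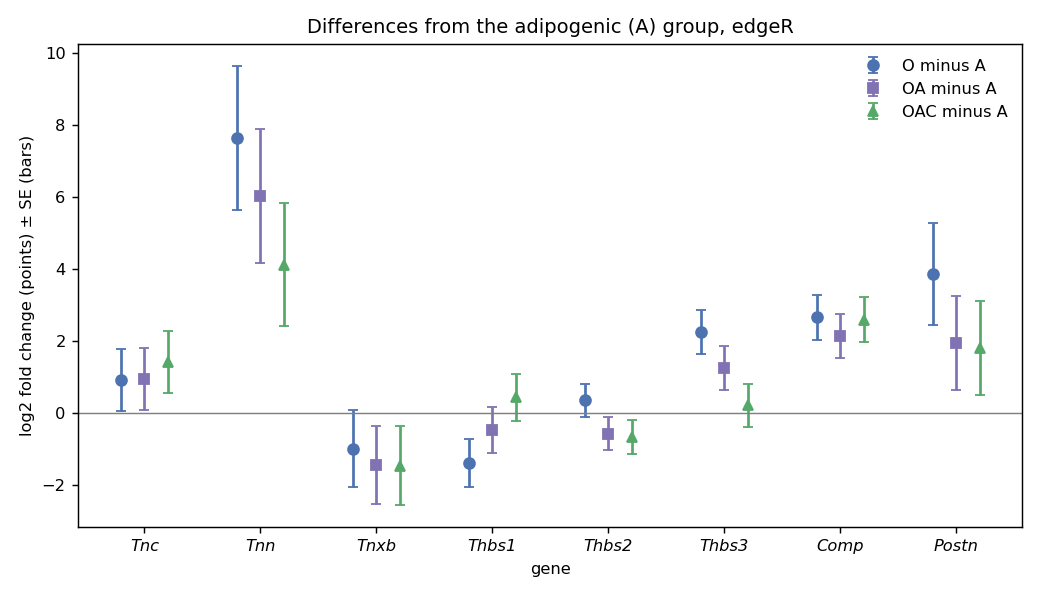
edgeR log2 fold change (points) and SE (bars) of O, OA and OAC against A for 8 members; Thbs4 is left out because A holds 0 reads. Tnn has the largest values (7.64, 6.03 and 4.12), Comp lies between 2.14 and 2.66 in all 3, and Thbs1 runs from -1.39 in O to 0.44 in OAC.

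Among the osteogenic groups no member was called by edgeR or DESeq2. In OAC vs O edgeR called 0 of 8 members and 0% of all genes, with 2 members at an unadjusted p under 0.05 (Thbs1 and Thbs3, above) against 6.02% of genes, and the DESeq2 share was 0.728%. With libraries left out DESeq2 called 1 member in this comparison: Tnn without OAC3 (adjusted p 0.0362), Thbs1 without O3 (0.0128) and Postn without OA2 and O1 (0.0122). In OA vs O 0 members had an unadjusted p under 0.05 against 5.43% of genes, and in OAC vs OA 0 against 1.17%. DESeq2 called 0.303% of all genes in OA vs O and 0% in OAC vs OA. In OAC vs O, Thbs1 was separated and higher, as were 5.75% of genes, and Tnn and Thbs3 were separated and lower, as were 5.79%. Group means of Tnn were 383 ± 487 CPM in O, 126 ± 114 CPM in OA and 33.3 ± 40.9 CPM in OAC, and those of Thbs3 were 85.9 ± 46.1, 43.3 ± 24.6 and 21 ± 8.29 CPM. Neighbouring groups in both orders differed by less than the spread of their libraries, although all OAC libraries lay below all O libraries. Comp had 9.69 ± 0.813 CPM in O, 6.74 ± 4.1 CPM in OA and 9.21 ± 5.62 CPM in OAC, with overlapping libraries.

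Members differed in which other genes they resembled over the 14 libraries, by Pearson r of log2 CPM and as a description only. The nearest to Tnn were Hecw2 (r = 0.93), Fabp5 (0.92) and the citrate transporter Slc13a5 (0.92), and to Comp the calcium-binding protein gene S100b (0.92), Ppp1r3b (0.87) and Acot2 (0.86). Nearest to Postn were Taf13 (0.95), Plcb1 (0.94) and Kdelc1 (0.94), all with transcripts of 41.3% to 44.9% GC. Thbs3 was nearest to Dnm1 (0.9), Thbs4 to Adamts18 (0.85), Tnxb to Ssbp2 (0.85) and Thbs2 to Pfkfb4 (0.83). Tnc was nearest to Chd1l (0.9) and Thbs1 to B3gnt2 (0.91), which without OA2 and O1 had an r of 0.78 and 0.74 over 12 libraries. Within the family, Thbs4 left out, the closest pair was Tnn with Thbs3 (r = 0.69), then Tnn with Postn (0.65, and 0.78 without OA2 and O1). Tnn with Thbs4 had 0.74. Thbs4 had 0 or 1 read in A, AC3, O1, OA1, OAC1 and OAC2, so its correlations, that with Adamts18 included, rest on the few libraries where it was read.

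Genes around the family were read from lists of matricellular relatives, receptors, matrix partners and proteases, tendon and ligament genes, and upstream factors. By edgeR 0 of their tested genes passed the FDR in any comparison. Of the 19 tested relatives, 1 higher and 2 lower had an unadjusted p under 0.05 in O vs A, where 9.89% of all genes did, with a median log2 fold change of -0.43 against 0.03 over all genes. The 2 with the lowest p were both lower in O: Spp1, which encodes osteopontin (178 ± 43.9 CPM in O against 1034 ± 173 CPM for A, -2.54 ± 0.55, FDR 0.181), and Ctgf, a YAP target of the CCN family (130.2 ± 109.8 and 882 ± 250 CPM, -2.76 ± 0.89, FDR 0.339). DESeq2 called both (adjusted p 0.000585 and 0.0301). Smoc1, a Sparc relative that antagonises BMP, averaged 6.64 ± 4.67 CPM in the 9 osteogenic libraries and 18.4 ± 11.9 CPM in A (-1.76 ± 0.42, edgeR FDR 0.273, DESeq2 adjusted p 0.0175), while Sparc, the collagen-binding osteonectin, averaged 7593 ± 1974 CPM there (n = 9) and 4467 ± 813 CPM in A (0.76 ± 0.26, FDR 0.476).

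Of 23 tested receptors, 0 reached an unadjusted p below 0.05 in O vs A, against 9.89% of all genes, with a median of 0.12. DESeq2 called none in O vs A, against 3.03% of all genes. Itga9, the integrin subunit that binds tenascin-C, averaged 25.2 ± 13.9 CPM in the 9 osteogenic libraries and 6.08 ± 2.39 CPM in A (1.98 ± 0.55, edgeR FDR 0.362, DESeq2 adjusted p 0.00635). AC3 held 40.9 CPM of it. Itga7, a laminin receptor subunit, had -0.7 ± 0.28 (FDR 0.593), and the CD47 ligand Sirpa had -2.7 ± 1.29 in O vs A (FDR 0.532). Of 23 tested matrix partners and proteases, 10 higher and 4 lower in O reached an unadjusted p below 0.05, against 9.89% of all genes, with a median of 0.68. Against 3.03% of all genes, DESeq2 called Col1a1, Col1a2, Col3a1, Col12a1 and Fmod as higher and Col14a1 as lower. Fmod, a collagen-binding proteoglycan, had 4.07 ± 0.53 (FDR 0.0605), and Col1a1, the main collagen of bone, 2.44 ± 0.39 (FDR 0.123).

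Of the 5 tested tendon and ligament genes, 2 higher and 2 lower had an unadjusted edgeR p under 0.05 in O vs A, against 9.89% of all genes. Changes in both directions left their median at 0.04. Scx, the tendon transcription factor scleraxis, stood at 32.3 ± 11.3 CPM in O against 8.33 ± 5.12 CPM for A (1.95 ± 0.73, FDR 0.418) without overlap, and Egr1, an immediate early factor, 142 ± 45.8 and 583 ± 95 CPM (-2.04 ± 0.7, FDR 0.374). DESeq2 called neither. Among 22 tested upstream factors 1 higher and 3 lower had an unadjusted edgeR p under 0.05 in O vs A, against 9.89% of all genes. Their median was 0.08. DESeq2 called Sp7 alone (7.78 ± 1.7 in edgeR, FDR 0.183), against 3.03% of all genes. Bmp4, which encodes a bone morphogenetic protein, averaged 91.1 ± 32.4 CPM in the osteogenic libraries and 47 ± 3.38 CPM in A (0.95 ± 0.36, FDR 0.55).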

How the data were processed

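Poly(A) RNA of 14 mouse stromal cell libraries was sequenced, and the deposited values are raw counts of reads for each gene, 16888190 to 26076539 per library. CASAVA 1.8.0, bedtools 2.11 and build mm9 are named, per the submitters' processing notes, while an aligner or strand setting was not given in the sources used here. A gene was kept if 3 or more libraries reached 1 CPM, and the counts were tested with edgeR 4.0.16 (R 4.3.3; TMM, robust quasi-likelihood test, 6 group means, Benjamini-Hochberg FDR over all genes, threshold 0.05), with SE from the fold change and its F value. DESeq2 1.42.0 and limma 3.58.1 (voom with quality weights) were second tests. For the GC correction, log2 CPM deviations were fitted per library with a 4 df spline on transcript GC content, known for 96.5% of tested genes. Scripts were tested on a single simulated draw with dispersions estimated by edgeR. In it a larger share of the calls was false for DESeq2 than for edgeR, and the DESeq2 share exceeded its threshold. Other alternatives were another scaling and filter, a replicate block, libraries left out, single clones only, and only the groups compared; DESeq2 with libraries left out and other spline df were chosen after seeing the data.

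Groups follow the deposited labels. The members and lists were chosen with earlier results of these data known. Named were the 9 members and, from each list, the 2 genes with the lowest p in O vs A and in O, OA and OAC vs A, at a mean of at least 5 CPM, and the 3 genes most like each member by Pearson r. A gene of the upstream list that this rule names is not reported here. Same-numbered libraries of different groups correlated at -0.58 to 0.76 in their deviations from group means (median 0.29), over 0.1 in 11 of 18 pairs. Differently numbered libraries correlated at -0.7 to 0.67 (median -0.135), so some structure shared by number is possible. The numbers were not taken to pair the libraries, because the labels do not say that a number marks the same mouse in every group. Intervals and floors cover counting error only.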

Additional observations from a re-analysis of the deposited data

Results flagged for a closer look

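The unreplicated pools AC3 and OC3 enter no comparison, and 7 of their values lay outside the range of A (for AC3) or O (for OC3), 5 above it and 2 below it. In AC3, Thbs1 stood at 5739 CPM, Thbs3 at 59.6 CPM, Comp at 12 CPM and Postn at 928 CPM, each above every A library, by a narrow margin for Thbs1. In OC3, Thbs1 stood at 8467 CPM, above every O library. Below the range lay Tnc in AC3, at 471 CPM, and Comp in OC3, at 6.44 CPM. Each pool is 1 library, so none of these differences was tested.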

How the results depend on the processing

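By edgeR 1 gene was called in each of the 4 comparisons with A and 0 in the others. DESeq2 called 420 in O vs A, 130 in OA vs A, 57 in OAC vs A, 283 in O, OA and OAC vs A, 42 in OA vs O and 101 in OAC vs O, and limma voom 151 in O vs A and 47 in O, OA and OAC vs A. In the order O, OA, OAC and the 3 together against A, edgeR called 2, 2, 2 and 2 with no filter, 3, 2, 2 and 4 without OA2 and O1, 0, 0, 0 and 0 with single clones only, and 0, 0, 2 and 2 with only the groups compared. The GC offset gave 6 in O vs A, and DESeq2 size factors or filterByExpr 2 in O, OA and OAC vs A. The cause of these differences was not tested.

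Of all 9 members, Thbs4 included, edgeR called 0 under every setting, DESeq2 5, 2, 1 and 3 in the 4 comparisons with A, and voom 1 in O vs A. Without OA2 and O1, DESeq2 called 1 member in OAC vs O. With 1 library left out, edgeR called 0 to 4 genes in O vs A, 0 to 1 in OA vs A, 0 to 0 in OAC vs A and 0 to 3 in O, OA and OAC vs A. DESeq2 then called 3 to 5 members in O vs A, 1 to 1 in OA vs A, 0 to 1 in OAC vs A and in OAC vs O, and 2 to 4 in O, OA and OAC vs A. These counts include Thbs4 where it was tested, and without it the full-data counts against A were 4, 2, 1 and 2. With all libraries DESeq2 called 3.03%, 0.937%, 0.411% and 2.04% of all genes against A, and 0.728% in OAC vs O. The shares of all genes with libraries left out were not counted.

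Of 38 member fold changes, 32 kept their sign under all settings. The reversals were Thbs3 in OAC vs A (-0.23 with single clones only, and -0.17 to 0.5 with 1 library left out), Thbs1 in OAC vs A (-0.01 to 0.76), Tnc in O vs A (-0.44 to 1.46), Thbs2 in O vs A (-0.27 to 0.67) and in O, OA and OAC vs A (-0.54 to 0.02), and Tnxb in O vs A (-2.26 to 0.15). With the replicate block, alone or with the GC offset, edgeR again called 1 gene in each comparison with A and 0 members, and 7 of 12 libraries correlated best with their own number. Tnxb in O, OA and OAC vs A was -1.37 ± 0.36 (edgeR FDR 0.348) with this block. Depth limits Thbs4, which has 0 reads in A and 1 read in O1 and OA1.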
